A study of Mus musculus with 26 samples.

Results

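The genes described are 10 markers of macrophages and of antigen presentation through MHC class II: Cd68, Adgre1, Csf1r, Cd163, Mrc1, Lyve1, Ccr2, Cd74, H2-Aa and H2-Ab1. They were chosen by name, 10 rows of the 56941 listed in the count matrix, and all 10 were abundant enough to be tested among the 15357 genes that passed the filter on low counts. RNA was sequenced from the left ventricle of 26 mice aged 12 to 16 weeks. Every mouse, control or knockout, was homozygous for a loxP-flanked Ppp2r2a allele (Ppp2r2aL/L), which encodes the PP2A regulatory subunit B55α, and had received saline from an osmotic minipump for 2 weeks. The knockouts (cKO, aMHC-CreTg/0-Ppp2r2aL/L) carried a Cre transgene driven by the cardiomyocyte promoter aMHC, so Cre is directed to heart muscle cells and not to the immune cells that these genes mark. The controls (Ctrl, aMHC-Cre0/0-Ppp2r2aL/L) lacked Cre. Each Ctrl group, male and female, had 6 mice, and each cKO group had 7. The strain label of each sample is C57BL/6N, while the design text gives a mixed background, with floxed mice of C57BL6/N and aMHC-Cre mice of FVB. Mice with Cre and no floxed allele were not analysed here.

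The adult heart holds macrophages of embryonic and of monocyte origin. Long-lived resident macrophages carry LYVE1, CD163 and the mannose receptor MRC1, and cells recruited from blood monocytes carry the chemokine receptor CCR2. Macrophages depend on the growth factor receptor CSF1R. A further share of cardiac macrophages, together with dendritic cells and B cells, displays peptides on MHC class II. The class II molecule of the I-A type is a pair of chains encoded by H2-Aa and H2-Ab1, and CD74, the invariant chain, holds the pair together and guides it to the compartment where peptides are loaded. The class II genes and Cd74 are switched on together by the coactivator CIITA, which acts through factors bound at short conserved promoter boxes.

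Because H2-Aa and the neighbouring class II gene H2-Eb1 carry the main pattern described further on, the 250 bases before the annotated start of each are shown, from RefSeq on GRCm38.p6. The window is chr17:34287824-34288073 on the minus strand for H2-Aa and chr17:34305617-34305866 on the plus strand for H2-Eb1, and both are given 5′ to 3′. Capitals mark matches to 3 motifs searched on both strands, which were chosen with these promoters in view: the Y box core ATTGG, a cyclic AMP response element TGACGTCA, and the X box. No marked match overlaps another.
H2-Aa: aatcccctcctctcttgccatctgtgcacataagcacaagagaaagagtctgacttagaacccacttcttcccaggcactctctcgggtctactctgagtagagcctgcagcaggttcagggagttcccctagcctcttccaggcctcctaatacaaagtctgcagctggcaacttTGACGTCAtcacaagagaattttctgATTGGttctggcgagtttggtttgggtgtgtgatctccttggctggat
H2-Eb1: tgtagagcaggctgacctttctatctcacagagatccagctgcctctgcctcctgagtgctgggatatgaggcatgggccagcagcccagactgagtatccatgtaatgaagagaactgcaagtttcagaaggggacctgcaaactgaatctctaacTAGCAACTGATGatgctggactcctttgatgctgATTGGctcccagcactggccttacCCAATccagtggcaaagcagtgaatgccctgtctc
H2-Aa had 1 Y box core, beginning 48 bases before the start site, and 1 cyclic AMP response element, beginning 74 bases before it. H2-Eb1 had 2 Y box cores and 1 match to the X box. Of 32851 mouse promoter windows of 300 bases (250 before the start to 50 after it), 37.4% held the Y box core, 1.79% the cyclic AMP response element and 0.155% the X box. Promoter entries were found for 5 of the 10 genes. Of the other 4 (Cd68, Cd163, Mrc1 and Ccr2), none matched the X box or the cyclic AMP response element, and Cd68, Cd163 and Mrc1 held the Y box core.

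Library totals ran from 14403102 to 30867399 counts, and 3 counts, taken as the floor of detection, correspond to 0.0972 to 0.208 CPM (counts-per-million of the scaled library total). As a check of the labels, Ppp2r2a had a mean of 37.4 ± 10.2 CPM in the 6 Ctrl males and 14.1 ± 1.81 CPM in the 7 cKO males (SD), and of 40.4 ± 3.6 and 13.4 ± 2.07 CPM in the 6 Ctrl and 7 cKO females. The libraries labelled Ctrl male 3 and Ctrl male 6 held 24.9 and 24.1 CPM, where the remaining Ctrl males held 41.9 to 47.7. Several results that rest on these libraries are given without them too. Markers of the labelled tissue were abundant: 7 cardiomyocyte genes summed to between 46170 and 64160 CPM per mouse. Of 8 markers of dendritic cells, which also display class II, 6 were below the filter, and all 8 together summed to between 18 and 34 CPM per mouse. Ly6g, which marks neutrophils, had no count in any mouse. As whole tissue was sequenced, fewer cells of a type and less RNA per cell cannot be told apart in any value given here.

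The class II chain genes and Adgre1 lie on chromosome 17 (H2-Aa, ENSMUSG00000036594; H2-Ab1, ENSMUSG00000073421; Adgre1, ENSMUSG00000004730), and Cd74 (ENSMUSG00000024610) and Csf1r (ENSMUSG00000024621) on chromosome 18. Cd68 (ENSMUSG00000018774) lies on chromosome 11, Cd163 (ENSMUSG00000008845) on 6, Mrc1 (ENSMUSG00000026712) on 2, Lyve1 (ENSMUSG00000030787) on 7 and Ccr2 (ENSMUSG00000049103) on 9. The invariant chain gene was the most abundant of the 10 per length of transcript. On the scale of CPM per kilobase of the longest annotated transcript, as a mean over 26 mice with its SD, Cd74 stood at 62.6 ± 17.5, followed by the class II chains H2-Ab1 at 22.1 ± 5.54 and H2-Aa at 12.3 ± 3.91. The order of the 2 chains depends on the lengths used, 1212 bases for H2-Ab1 and 3223 for H2-Aa. In CPM alone H2-Aa was the higher, at 39.7 ± 12.6 beside 26.8 ± 6.72. Csf1r (7.94 ± 1.24), Lyve1 (7.12 ± 1.77) and Cd68 (6.74 ± 1.31) followed and lay within 1 SD of each other. Mrc1 (4.66 ± 0.862) and Cd163 (4.13 ± 0.935), both scavenger or lectin receptors of resident macrophages, also lay within 1 SD of each other. Adgre1, the gene of F4/80, was at 1.93 ± 0.517. Ccr2 was the lowest at 0.280 ± 0.151, with 3 to 85 counts per library, so its values are the least precise.

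**Figure D1:**
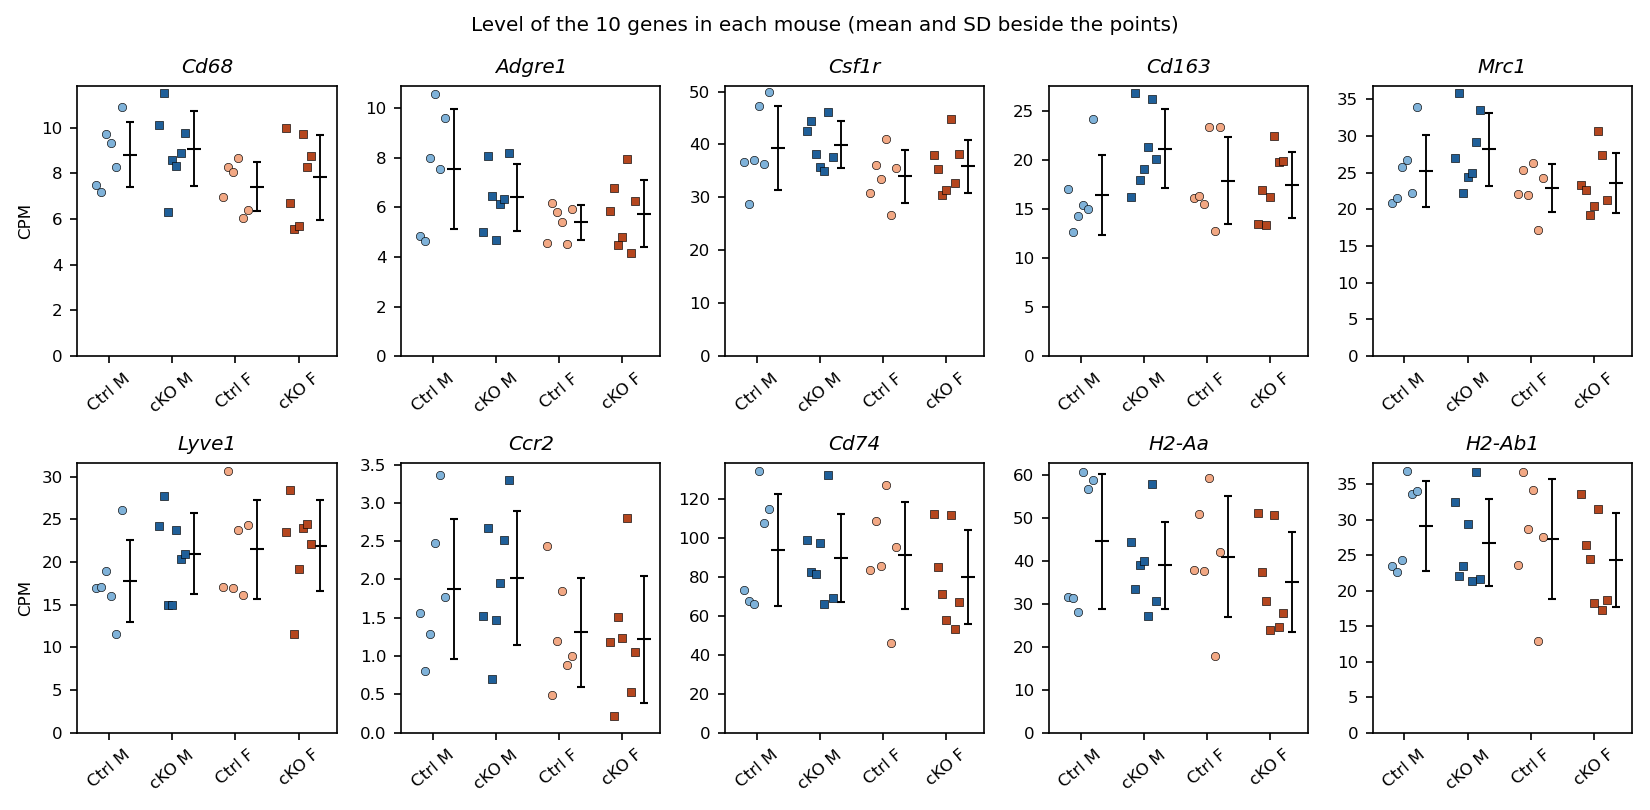
CPM of each of the 10 genes (vertical axis, from 0) in each mouse, by group (horizontal axis); circles are Ctrl and squares cKO, blue is male and orange female, and the bar beside the points is the mean with its SD (6 Ctrl and 7 cKO mice of each sex). The groups overlap for each gene, and Cd74, H2-Aa and H2-Ab1 spread widely within each group.

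The first comparison asked whether loss of B55α from heart muscle cells changed these genes in males. Of the 10 genes, 0 passed an edgeR adjusted p of 0.05, where 0.443% of all genes tested did (68 of 15357). At an unadjusted p under 0.05 there was 1 of the 10, Cd163, against 13.2% of all genes, a share near the background. The cKO and Ctrl males overlapped for each of the 10 genes, and 1.28% of all genes had groups that did not. The estimates fell on both sides of 0, with 6 genes higher and 4 lower in cKO and a median log2 fold change of 0.03, beside 0.001 over all genes.

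Cd163, the haemoglobin scavenger receptor of resident macrophages, had the smallest p of the 10 in males. Its lowest, median and highest values were 12.6, 15.3 and 24.2 CPM in Ctrl males and 16.3, 20.1 and 26.9 CPM in cKO males. A single Ctrl male, number 6, stood at the top of its group and inside the cKO range. The log2 fold change was 0.36 (SE 0.16, 95% interval 0.03 to 0.70) and did not pass the threshold (edgeR adjusted p = 0.320). Without Ctrl male 6 it was 0.50 with an adjusted p of 0.121, and without Ctrl males 3 and 6 it was 0.49 with an adjusted p of 0.201. Over all alternatives tried the adjusted p lay between 0.121 and 0.530.

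The other resident macrophage genes had positive estimates in males, with 95% intervals that included 0. Lyve1, a hyaluronan receptor, was at 11.5, 17.0 and 26.1 CPM (lowest, median and highest) in Ctrl males and at 14.9, 20.9 and 27.8 CPM in cKO males, with a log2 fold change of 0.25 (SE 0.20). Mrc1 gave 0.16 (SE 0.13). Without Ctrl males 3 and 6 it gave 0.30 (SE 0.13, edgeR unadjusted p = 0.0346, adjusted p = 0.339). Without Ctrl male 6 alone it gave 0.27 (SE 0.12, edgeR adjusted p = 0.337). Both groups covered most of the same range for each gene. Among the genes of all macrophages, Csf1r gave 0.02 (SE 0.11, 95% interval -0.21 to 0.25) and Cd68, a lysosomal glycoprotein, 0.04 (SE 0.14, interval -0.24 to 0.33), and Adgre1 gave -0.23 (SE 0.18, interval -0.60 to 0.13). The interval for Csf1r is the narrowest of the 10. For Ccr2, with its few counts, the estimate was 0.11 (SE 0.39, interval -0.69 to 0.91).

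The class II genes had negative estimates in cKO males, all within their error. Cd74 was at 65.9, 90.6 and 134 CPM (lowest, median and highest) in Ctrl males and 65.9, 82.3 and 132 CPM in cKO males, so the groups spanned almost the same range. Its log2 fold change was -0.07 (SE 0.23, interval -0.55 to 0.41). H2-Aa gave -0.20 (SE 0.26) and H2-Ab1 -0.13 (SE 0.21).

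In females the estimates for the 10 genes lay between -0.22 and 0.09. At the adjusted threshold 0 of 10 were called, where 0.0326% of all genes were (5 of 15357), and 0 of 10 had an unadjusted p under 0.05, where 5.15% of all genes did. No member had groups that did not overlap, beside 0.169% of all genes. Cd163 was at 12.7, 16.3 and 23.4 CPM in Ctrl females and 13.4, 16.9 and 22.5 CPM in cKO females, ranges of nearly the same width and place, with a log2 fold change of -0.03 (SE 0.16, interval -0.37 to 0.30). Csf1r gave 0.08 (SE 0.11), Mrc1 0.05 (SE 0.13), Lyve1 0.03 (SE 0.20) and Adgre1 0.09 (SE 0.19). The class II genes were again all on the negative side: Cd74 gave -0.19 (SE 0.23), H2-Aa -0.22 (SE 0.26) and H2-Ab1 -0.17 (SE 0.21). These 3 genes vary together between mice, as shown further on, so their shared sign is not 3 separate observations.

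The series title puts sex-specific regulation in question, and the difference of the genotype effect between the sexes tests it directly. It called 0 of the 10 genes and 0% of all genes with the edgeR test and adjustment, and the DESeq2 and limma voom fits called 0 genes too. At an unadjusted p under 0.05 there were 0 of the 10 and 3.96% of all genes. The largest difference among the 10 was that of Cd163, at -0.40 (female effect minus male effect, SE 0.23, edgeR adjusted p = 0.999). For Adgre1 it was 0.33 (SE 0.26). With both sexes averaged, 0 of 10 genes passed, against 1.33% of all genes, and the estimates ran from -0.21 for H2-Aa (SE 0.18) to 0.16 for Cd163 (SE 0.11).

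**Figure D2:**
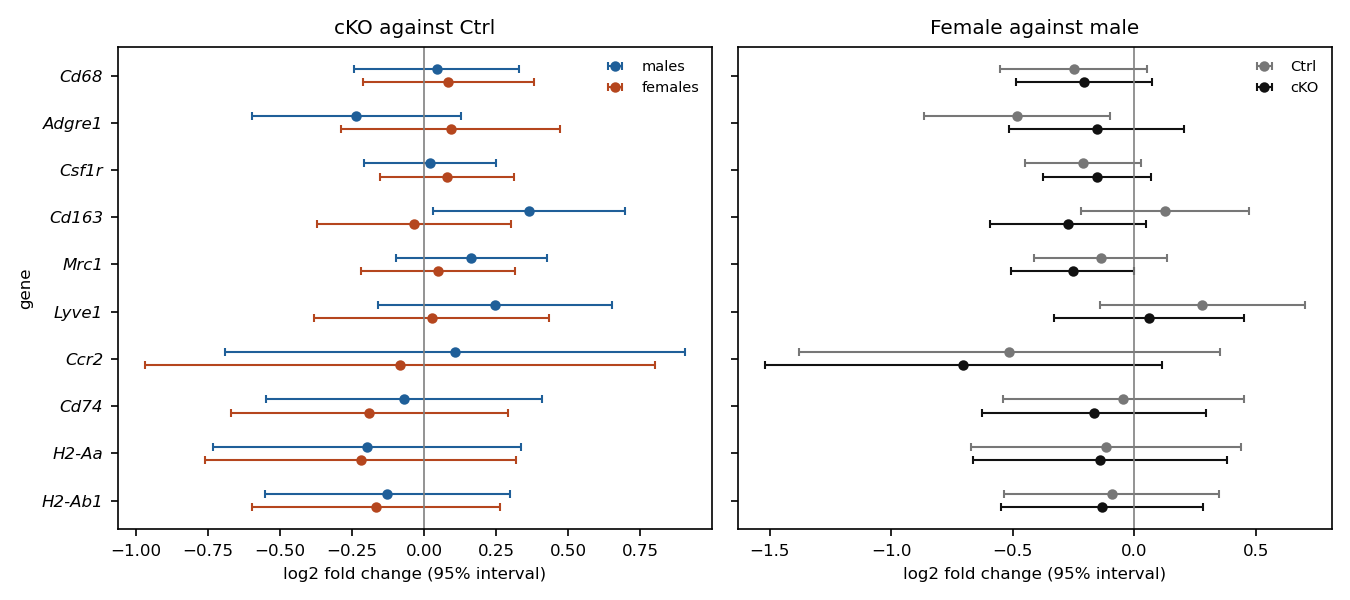
Log2 fold changes of the 10 genes (vertical axis) with their 95% intervals from the edgeR fit (horizontal axis), for cKO against Ctrl in males and females (left) and for females against males within Ctrl and cKO (right). The intervals for Cd163 in males, Adgre1 in Ctrl and Mrc1 in cKO exclude 0 before adjustment, and 0 of the 10 genes passed the adjusted threshold in any of these comparisons.

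Between the sexes, most of the 10 genes had lower estimates in females. In Ctrl mice 8 of 10 were lower, with a median log2 fold change of -0.13 beside 0.004 over all genes, and in cKO mice 9 of 10 were lower, with a median of -0.16 beside 0.007. None passed the adjusted threshold, where 0.638% of all genes did in Ctrl (98 genes) and 2.7% in cKO (414 genes). At an unadjusted p under 0.05 there was 1 of 10 in each genotype, against 12.1% and 17.3% of all genes. For each of the 10 genes the sexes overlapped in both genotypes, and 1.02% and 1.09% of all genes had sexes that did not.

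Adgre1 had the smallest p in Ctrl mice. It was at 4.65, 7.77 and 10.6 CPM (lowest, median and highest) in Ctrl males and at 4.53, 5.61 and 6.19 CPM in Ctrl females. The males covered a wide range whose lower end lay among the females. On the log2 scale the difference was -0.48 (SE 0.19, adjusted p = 0.270 by edgeR). Without Ctrl males 3 and 6 it was -0.37 with an adjusted p of 0.605, and without Ctrl male 1 it was -0.58 with an adjusted p of 0.130. In the same comparison Csf1r gave -0.21 (SE 0.12) and Cd68 -0.25 (SE 0.15). In cKO mice the smallest p was that of Mrc1, at 22.3, 27.0 and 35.9 CPM in cKO males and 19.3, 22.7 and 30.7 CPM in cKO females. The females sat toward the lower end of the male range, and the difference was -0.25 on the log2 scale (SE 0.12, adjusted p = 0.287 by edgeR). Cd163 gave -0.27 (SE 0.16) there and Ccr2 -0.70 (SE 0.40, interval -1.52 to 0.11).

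The other genes of macrophages, from lists that did not include the 10, were tested in the same fit. Of 17 macrophage and monocyte genes such as C1qa, a complement component made by macrophages, and Ptprc, the CD45 gene, 0 passed in any of the 6 comparisons. The share over all genes was 0% to 2.7% by comparison, and 0 of 17 is near it. Their median log2 fold change was 0.03 in each sex for cKO against Ctrl. For females against males 14 of the 17 had lower estimates in Ctrl (median -0.19) and 17 of 17 in cKO (median -0.23). In cKO, the 7 cardiomyocyte genes had a median of 0.14 in the other direction (5 higher, 2 lower). In Ctrl the median of these 7 genes was 0.0006 (4 higher, 3 lower). Of these, Tnni3, cardiac troponin I, was higher in cKO females (0.24, SE 0.05, edgeR adjusted p = 0.00821), as was Myl2, the ventricular myosin light chain (0.26, SE 0.06, adjusted p = 0.0231). Without cKO female 2, cKO female 4 or cKO male 6, Myl2 had adjusted p values of 0.0535, 0.0566 and 0.0501. Col1a2, a collagen chain of fibroblasts, was lower in cKO females (-0.40, SE 0.10, adjusted p = 0.0307), a call that was lost at 0.0501 to 0.0756 without cKO female 2, 3 or 4 or cKO male 1, 2, 5, 6 or 7, and at 0.0672 with no filter and 0.0595 with the length correction. For cKO against Ctrl males Tnni3 was lower (-0.24, SE 0.05, adjusted p = 0.0316), a call lost at 0.0522 to 0.107 without Ctrl male 1, 4 or 5 or cKO male 1, 2, 5 or 6, at 0.0545 without Ctrl males 3 and 6 and at 0.0642 with the length correction. With both sexes averaged, Tnni3 was lower in cKO too (-0.17, SE 0.04, edgeR adjusted p = 0.0168). That averaged call held in all 35 alternatives, with a highest adjusted p of 0.0384. The part of the muscle and fibroblast genes in the lower macrophage values was not tested. Of 9 resident macrophage genes, among them Timd4 and Folr2, 0 passed in any comparison, beside the same 0% to 2.7% of all genes. Their medians were 0.06 in males and 0.14 in females for cKO against Ctrl.

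Of the 12 genes listed for recruited monocytes and inflammatory macrophages, 7 could be tested, and Ly6c2, Plac8, Chil3, Il1b and Spp1 were below the filter. Fn1, fibronectin, which fibroblasts and other cells express as well, passed in males: it was at 32.3, 38.1 and 45.9 CPM in Ctrl males and 43.2, 58.8 and 65.2 CPM in cKO males. The groups met only at their edges, and the estimate was 0.53 on the log2 scale (SE 0.12, adjusted p = 0.0397 by edgeR). With both sexes averaged it was 0.35 (SE 0.08, adjusted p = 0.0313). The call was lost, with adjusted p values from 0.0546 to 0.123, without Ctrl male 1, 2, 3 or 5 or without cKO male 2, 5, 6 or 7, and was also lost with the replicate block (adjusted p = 0.0579), with no filter (0.101), with a correction for transcript length (0.120) and without Ctrl males 3 and 6 (0.0746). The averaged value was lost too, at 0.0526 to 0.0682, without Ctrl male 1, 2 or 5, Ctrl female 1, 4 or 5, cKO male 2 or 6 or cKO female 1 or 5, and at 0.0873 with no filter, 0.0772 with the replicate block and 0.1 with the length correction. All 7 fibroblast genes, Col1a2 among them, had positive estimates in the same comparison (median 0.22, 0 called), and their part in the Fn1 value was not tested. Gpnmb, a lysosomal glycoprotein of lipid-laden macrophages, passed between the sexes in Ctrl mice. It was at 1.22, 1.82 and 2.13 CPM in Ctrl males and 0.158, 0.540 and 1.15 CPM in Ctrl females, so each Ctrl male was above each Ctrl female. The difference was -1.51 on the log2 scale (SE 0.30, adjusted p = 0.0109 by edgeR), from 3 to 63 counts per library. Without Ctrl males 3 and 6 it was -1.41 with an adjusted p of 0.0834. The genotype estimates of Gpnmb were -0.61 in males and 0.77 in females, and their difference of 1.38 with an SE of 0.41 did not pass (edgeR adjusted p = 0.999).

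The signals that act on macrophages gave no call either. Of 8 growth factors and chemokines tested, among them the CSF1R ligands Csf1 and Il34 and the CCR2 ligand Ccl2, 0 passed in any comparison. Over all genes 0% to 2.7% passed by comparison, so 0 of 8 is near that share. Csf1 gave 0.08 in males and 0.14 in females for cKO against Ctrl. Il34 gave 0.32 in males (SE 0.12, adjusted p = 0.228 by edgeR) and -0.14 in females (SE 0.12), and the difference of the effect between the sexes was -0.46 (SE 0.17, adjusted p = 0.999). Between the sexes in Ctrl, 5 of the 8 genes had an unadjusted p under 0.05, where 12.1% of all genes did: Csf1, Ccl2, Ccl7 and Ccl12 were on the lower side in females and Il34 on the higher side. Ccl2 came closest between the sexes in Ctrl, at 1.58 CPM on average in males and 0.625 in females (log2 fold change -1.33, SE 0.33, edgeR adjusted p = 0.0516). Ccl7 averaged 1.02 CPM in Ctrl males and 0.479 in Ctrl females, and Ccl12 0.736 and 0.275. These levels are not far above the floor of 0.0972 to 0.208 CPM, so the chemokine values are imprecise. Whether the 5 genes are separate observations was not tested.

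The main structure in the 10 genes lay between mice of the same group. The within-group SD of log2 CPM was 0.43 for Cd74, 0.49 for H2-Aa and 0.40 for H2-Ab1, whereas the median SD of genes at a similar level (within 0.5 log2 CPM) was 0.11, 0.11 and 0.13. Lyve1 (0.38 beside 0.14) and Cd163 (0.30 beside 0.14) also spread more than genes at their level, and Csf1r had 0.22 beside 0.11. Deviations of log2 CPM from the group mean were therefore compared between genes over the 26 mice, with 100000 permutations of mice within groups and adjustment over all 45 pairs. Of the pairs, 44 had a positive Pearson's r and 20 passed an adjusted p of 0.05. The median r of each gene with all other tested genes was between -0.02 and -0.002.

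The 3 class II genes moved almost as one. Cd74 and H2-Aa had r = 0.986 (Spearman's rho 0.977), Cd74 and H2-Ab1 r = 0.957 (rho 0.943), and the chains H2-Aa and H2-Ab1 r = 0.952 (rho 0.932), each with a permutation p of 1e-05 for r and for rho (adjusted p for r = 0.000113), the smallest that these permutations can give. Without the 2 mice farthest from the median, r was 0.934 to 0.981 for these pairs. Within single groups of 6 or 7 mice r was between 0.927 and 0.999. The ratio of H2-Aa to Cd74 in CPM stayed between 0.391 and 0.527 across the 26 mice, and that of H2-Ab1 to Cd74 between 0.268 and 0.369, although Cd74 itself ran from 45.9 to 134 CPM.

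**Figure D3:**
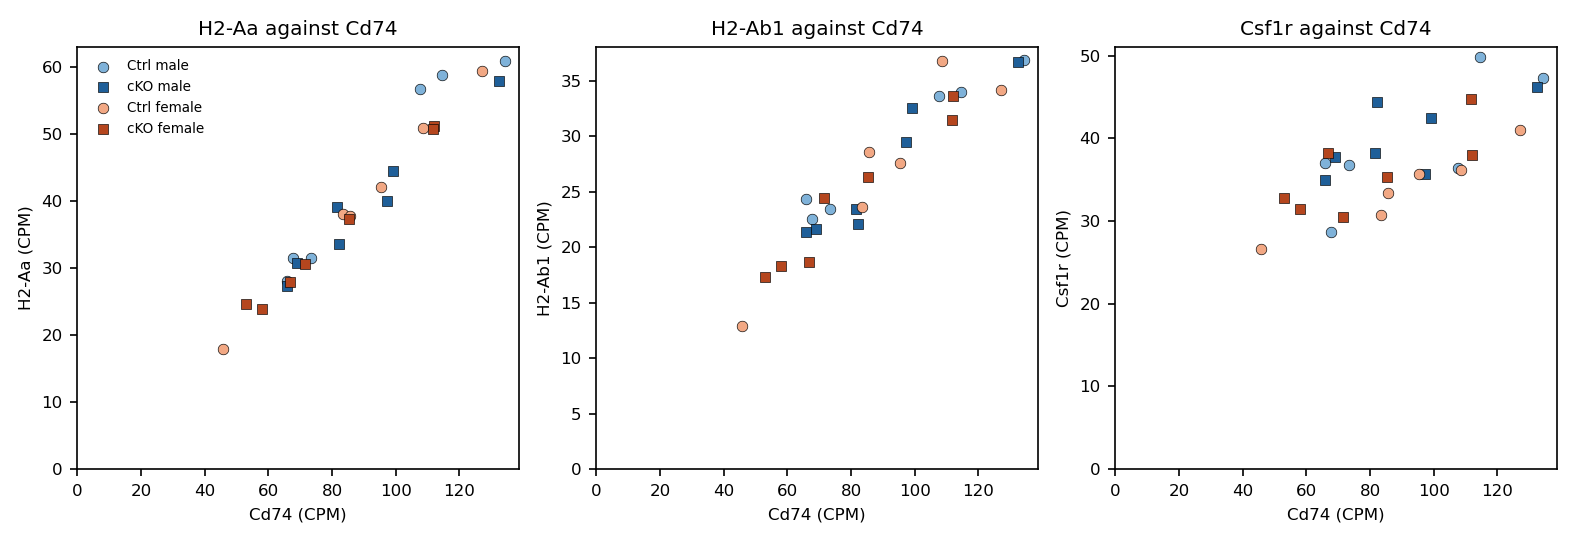
CPM of H2-Aa, H2-Ab1 and Csf1r (vertical axes, from 0) against those of Cd74 (horizontal axis, from 0), 1 point per mouse, by group. H2-Aa and H2-Ab1 follow Cd74 from the lowest mouse (45.9 CPM of Cd74) to the highest (134 CPM) in all 4 groups, while Csf1r follows it more loosely.

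The macrophage genes formed a second, looser set. Without Ccr2, the 15 pairs among Cd68, Adgre1, Csf1r, Cd163, Mrc1 and Lyve1 had r from 0.400 to 0.780 (median 0.631), and 12 passed. The highest was that of Cd68 and Mrc1 (r = 0.780, rho 0.756, permutation p = 1e-05 for r and 7e-05 for rho, adjusted p for r = 0.000113, r without the 2 farthest mice 0.737). Of the 21 pairs of a macrophage gene, Ccr2 included, with a class II gene, all 21 had a positive r over the 26 mice (0.191 to 0.785, median 0.418). In single groups of 6 or 7 mice their r ran from -0.61 (Adgre1 with H2-Ab1 in cKO males) to 0.992 (Mrc1 with Cd74 in Ctrl females). By r 5 of the 21 pairs passed, and by rho 3. Beside the pairs of Csf1r, Adgre1 with Cd74 passed (r = 0.475, rho 0.417, adjusted permutation p for r = 0.0476). Mrc1 with H2-Aa passed as well (r = 0.475, rho 0.441, adjusted permutation p for r = 0.0476). In cKO males alone, r was -0.42 for Adgre1 with Cd74 and -0.12 for Mrc1 with H2-Aa. Csf1r correlated most closely with the class II genes. It did so with Cd74 at r = 0.785 (rho 0.750, permutation p = 3e-05 and 9e-05, adjusted p for r = 0.00027, r without the 2 farthest mice 0.795), with H2-Aa at 0.763 (rho 0.726, adjusted permutation p for r = 0.00045) and with H2-Ab1 at 0.687 (rho 0.681, adjusted permutation p for r = 0.00108). Lyve1 was tied to Mrc1 (r = 0.687, rho 0.694, permutation p = 0.00049 and 0.00037, adjusted p for r = 0.0017, r without the 2 farthest mice 0.649) but had r = 0.213 with Cd74, 0.209 with H2-Aa and 0.209 with H2-Ab1, none of which passed (adjusted p = 0.355 each). Of the 9 pairs with Ccr2, 0 passed, with r from -0.23 to 0.33. In single groups of 6 or 7 mice the r of these pairs ran from -0.54 to 0.863, the highest being that with Mrc1 in cKO males. With the log2 total count per library, 0 of the 10 genes had a correlation that passed, the highest r being 0.481 for Cd68 (adjusted permutation p = 0.252). Markers of other cells moved with these genes too, given here as a description over the 26 mice. The 7 fibroblast genes had a median r of 0.544 with Csf1r (0.344 to 0.697, the highest for Dcn) and of 0.403 with Cd74. The 9 resident macrophage genes had medians of 0.495 and 0.162, and the 17 macrophage and monocyte genes 0.631 and 0.484. The 7 cardiomyocyte genes had medians of -0.34 and -0.19. Other cells display class II too. The 2 dendritic cell genes tested had r of 0.640 (Itgax) and 0.140 (Zbtb46) with Cd74, and of 0.491 and 0.0611 with Csf1r. The 3 B cell genes tested had medians of 0.391 with Csf1r and 0.343 with Cd74. The part of the fibroblast, muscle, dendritic and B cell genes in the correlations was not tested.

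**Figure D4:**
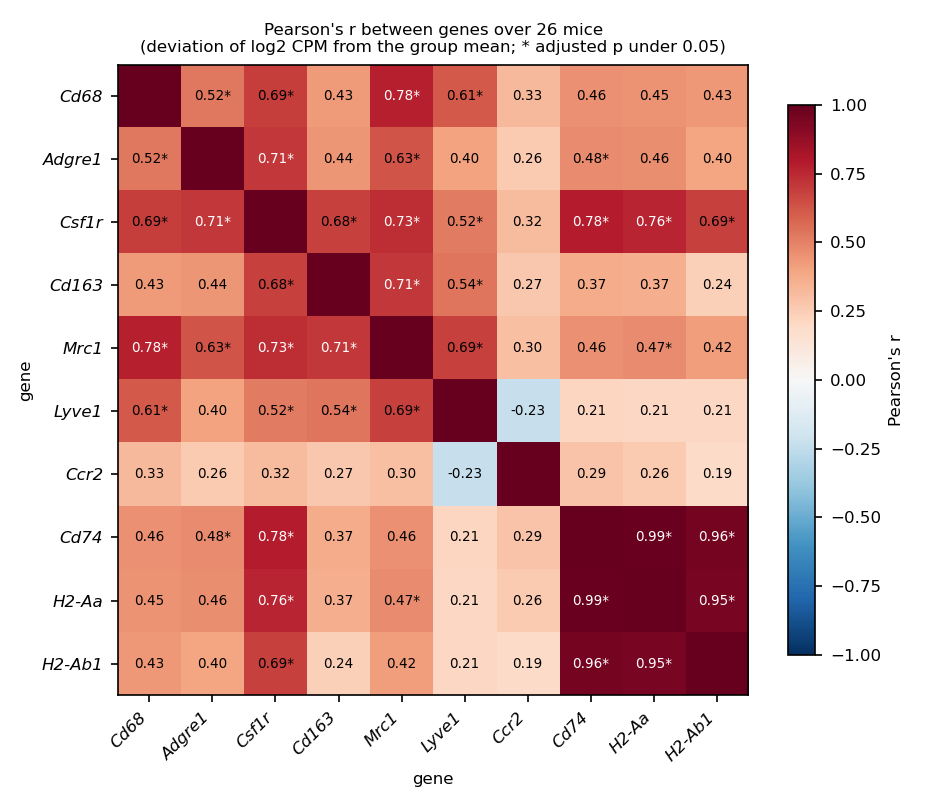
Pearson's r between each pair of the 10 genes (both axes) over 26 mice, from deviations of log2 CPM from the group mean; colour gives r, and asterisks mark adjusted p under 0.05 over 45 pairs. Cd74, H2-Aa and H2-Ab1 form a block above 0.95, the macrophage genes other than Ccr2 a block from 0.40 to 0.78, and Lyve1 and Ccr2 have low values with the class II genes.

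LYVE1 is also made by lymphatic endothelium, so its relation to both cell types was listed. As a description over 26 mice, Lyve1 had a median r of 0.624 with 9 resident macrophage genes, the highest being Cbr2 (0.766), Folr2 (0.661) and F13a1 (0.655). The lowest were Igf1 (0.324), Gas6 (0.224) and Vsig4 (0.103), within the range of the lymphatic genes below. With 6 lymphatic genes the median was 0.235. The highest of them was Pdpn (0.397), followed by Ccl21a (0.284), Mmrn1 (0.245), Flt4 (0.225) and Reln (0.0192). Prox1, a transcription factor of lymphatic endothelium, had -0.55. Mrc1 had medians of 0.593 and 0.0898 with the same lists. The 6 lymphatic genes were all above the filter and summed to 75 to 124 CPM per mouse. Prox1 alone averaged 43 to 52 CPM by group, a large part of that sum. Which cells its RNA came from was not tested, so neither its r nor the sum can be read as lymphatic cells alone.

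The genes most like 3 of the members were ranked by r among all 15357 genes tested, as a description. Csf1r was most like Pld4 (0.876), C1qc (0.852), Unc93b1 (0.852), Laptm5 (0.830) and Bicc1 (0.825). C1qc encodes a complement chain made by macrophages, and Unc93b1 a carrier of endosomal Toll-like receptors. Lyve1 was most like Alox5ap (0.809), C5ar1 (0.772), the noncoding RNA Rian (0.771), Cbr2 (0.766) and Rccd1 (0.752). H2-Ab1 was, outside the 10 genes, most like Smoc2 (0.842), Nlrc5 (0.814), H2-DMa (0.800), Psmb8 (0.789) and Cygb (0.779). Nlrc5 is the coactivator of MHC class I genes, H2-DMa a subunit of the peptide exchanger of class II, and Psmb8 an immunoproteasome subunit.

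One further class II gene stood apart and separated the mice. H2-Eb1, which lies beside H2-Aa and encodes the beta chain of the I-E type, was between 0.655 and 2.00 CPM in 13 mice and between 8.12 and 22.3 CPM in the other 13, with no mouse in between. It was singled out after its values were seen. The 13 mice of low level were 4 of 6 Ctrl males, 3 of 7 cKO males, 3 of 6 Ctrl females and 3 of 7 cKO females, so both levels occurred in each group. The group means were 5.33 CPM in Ctrl males, 9.53 in cKO males, 8.39 in Ctrl females and 7.75 in cKO females, and the differences between groups did not pass (log2 fold change in males 0.83, SE 0.86, edgeR adjusted p = 0.748). The sets were defined from these values and are no groups of the study. The class I genes H2-T22 and H2-T23, which lie farther along chromosome 17, separated the same mice. H2-T22 was at 2.23 to 4.03 CPM in the 13 mice of low H2-Eb1 and 9.97 to 16.1 CPM in the other 13, and H2-T23 was at 4.27 to 7.89 and 15.2 to 22 CPM. H2-Ea is the gene of the alpha chain that pairs with the product of H2-Eb1. It lay on the other side, at 0.302 to 0.897 CPM in the low set and 0.0618 to 0.353 CPM in the high set. The sets overlapped. Its counts were 6 to 29 per library in the low set and 1 to 7 in the high set. The high set thus lies at or near the floor of 3 counts, and these values of H2-Ea are imprecise. The labels give no genotype of any mouse at these genes beyond the mixed background of C57BL6/N and FVB, and the part of that background was not tested. Class I and class II genes are related in sequence, and how reads shared between them were counted is not given in the sources used here, so their levels are uncertain to that extent.

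**Figure D5:**
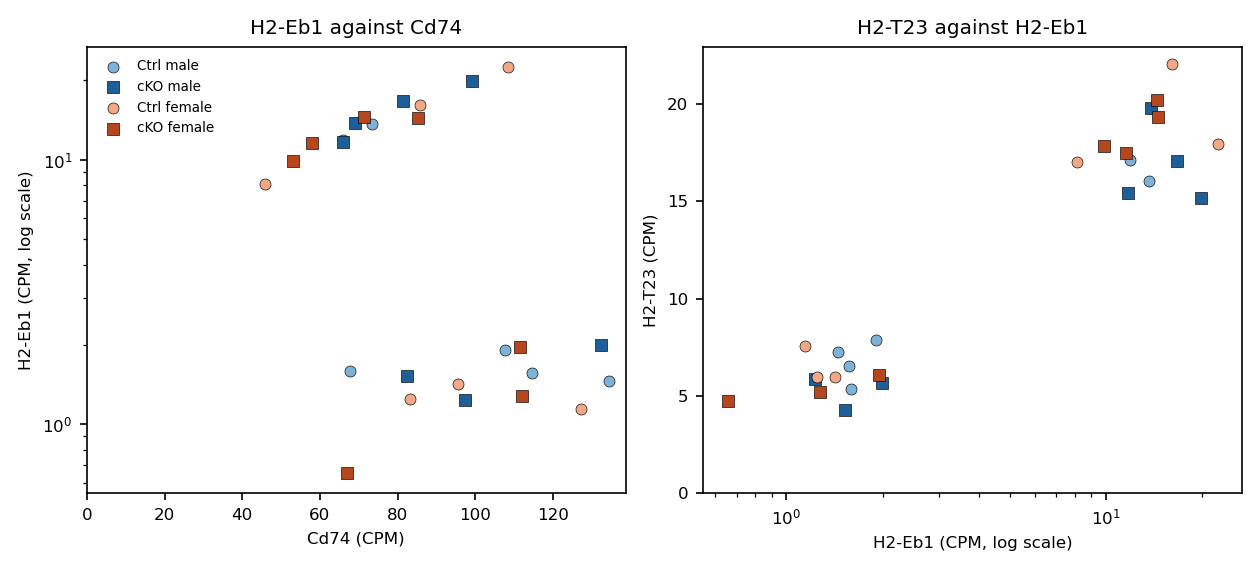
Left, H2-Eb1 (vertical axis, CPM on a log scale) against Cd74 (horizontal axis, CPM), and right, H2-T23 (vertical axis, CPM) against H2-Eb1 (horizontal axis, CPM on a log scale), 1 point per mouse by group. The mice fall into 13 with H2-Eb1 up to 2.00 CPM and 13 from 8.12 CPM, and within the upper 13 H2-Eb1 climbs with Cd74. Cd74 spans 66.9 to 134 CPM in the lower 13 mice and 45.9 to 108.5 CPM in the upper 13.

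Since the mice fall into 2 clusters on this axis, no r over all mice is given for H2-Eb1, and r was taken within each set of 13 (8 relations, chosen after seeing the data, adjusted together). In the 13 mice of high level, H2-Eb1 followed Cd74 with r = 0.975 (rho 0.956, permutation p = 0.00027 for r and 0.00043 for rho, adjusted p for r = 0.00172, r without the 2 farthest mice 0.940). It followed H2-Aa with r = 0.975 (rho 0.940) and H2-Ab1 with r = 0.959 (rho 0.934). In the 13 mice of low level the r with Cd74 was 0.468 (rho 0.192, permutation p = 0.216 and 0.591, adjusted p for r = 0.275) and was 0.155 without the 2 farthest mice. Whether these 2 correlations differ was not tested. Between the sets the direction was the other one, as Cd74 lay lower in the high set. It ran from 66.9 to 134 CPM in the low set and from 45.9 to 108.5 CPM in the high set, and the sets overlapped. The part of this difference in the spread of Cd74 within groups was not tested. The link among the 3 class II members was present in both sets: Cd74 with H2-Aa had r = 0.988 in each, Cd74 with H2-Ab1 0.974 in the low and 0.977 in the high set, and H2-Aa with H2-Ab1 0.977 and 0.963. Of the 21 pairs among macrophage genes, 6 passed within the low set and 1 (Cd68 with Mrc1, r = 0.904) within the high set, at 13 mice each. Of the 21 pairs of a macrophage gene with a class II gene, 0 passed within the low set and 1 (Csf1r with H2-Aa, r = 0.912) within the high set. Csf1r with Cd74 had r = 0.713 in the low set and 0.881 in the high set, neither of which passed (adjusted permutation p = 0.0806 and 0.0739).

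With a term for the H2-Eb1 level beside the group means, added after seeing the data, 0 of the 10 genes passed in any comparison. The SE of the Cd74 difference in males went from 0.23 to 0.19 and its estimate from -0.07 to 0.05, and those of H2-Aa went from 0.26 to 0.22 and from -0.20 to -0.04. Cd163 in males gave 0.42 (SE 0.14, edgeR adjusted p = 0.155). In females Cd74 gave -0.17 (SE 0.19). Over all genes, the number called went with this term from 68 to 165 in males and from 205 to 287 for the mean effect. Between the sexes it went from 414 to 448 in cKO and from 98 to 95 in Ctrl. It stayed at 5 in females and at 0 for the difference of the effect between the sexes.

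Within the sets of 13 mice, the other genes of the class II pathway were followed against Cd74 as a description. CIITA's gene, near 1 CPM in each group, had r = 0.881 with Cd74 in the low set and 0.438 in the high set. H2-DMa had 0.691 and 0.845, and H2-DMb2 0.722 and 0.691. The 9 further class II genes ran from -0.09 (Ifi30) to 0.839 (H2-Ea) in the low set and from 0.371 (Ctss) to 0.975 (H2-Eb1) in the high set. Of the DNA-binding factors through which CIITA acts, Rfx5 had 0.616 in the low set and -0.80 in the high set, so its direction was not the same in both. The sign also changed for Rfxap (0.37 and -0.29), Rfxank (-0.69 and 0.140), Nfya (-0.47 and 0.162), Nfyc (-0.18 and 0.155) and Creb1 (0.0488 and -0.44). Nfyb had -0.18 and -0.21. The 15 class I genes ran from 0.282 (H2-T24) to 0.869 (Psmb8) in the low set and from -0.63 (H2-T24) to 0.824 (Nlrc5) in the high set. H2-K1 had 0.817 and 0.732 and B2m, the light chain of class I, 0.855 and 0.660, whereas the peptide transporter gene Tap2 had 0.682 and -0.07 and Psmb9 0.743 and 0.0975. The 9 further class II genes tested, the 8 transcription factors and the 15 class I genes held 0 genes that passed the adjusted threshold in any of the 6 comparisons. Over all genes the share was 0% to 2.7% by comparison, and 0 is near it for lists of this size.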

How the data were processed

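RNA sequencing libraries from the left ventricles of 26 mice were examined. Per the labels' protocols, RNA came from about 20 mg of tissue with an RNA integrity number of at least 7.7, and strand-specific poly-A libraries were made from 500 ng. The authors deposited 1 matrix of whole-number counts per gene without normalization. The submitters' processing notes name FastQC 0.74, cutadapt 4.6, STAR 2.7.11a, HTSeq and the build GRCm39, with no role or order; the annotation release and use of strand in counting are not given in the sources used here. Chromosomes and transcript lengths came from GENCODE M21 by gene ID (15094 of 15357 genes, 98.3%). Promoters came from RefSeq on GRCm38.p6.

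Groups came from the genotype and sex in the labels. Tests used edgeR 4.0.16 under R 4.3.3. The filterByExpr rule (minimum count 10) set which genes were tested, TMM scaled the libraries, and 1 robust quasi-likelihood fit held 4 group means for all mice. The Benjamini-Hochberg adjustment ran across 15357 genes, and the threshold was 0.05. Log2 CPM used a prior count of 2. Correlations and their permutation tests, two-sided, were computed in Python 3.11.15 with NumPy 2.4.6. Methods were tested on simulated data. The members and lists were chosen with earlier results of these data known.

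The genes named are the 10 members, Ppp2r2a, list genes past the threshold, and the 5 genes most like each of Csf1r, Lyve1 and H2-Ab1. H2-Eb1, H2-T22, H2-T23 and the pathway examples were chosen after their values were seen. Alternatives were DESeq2 1.42.0 size factors and Wald test, limma 3.58.1 voom with quality weights, no filter, only genes with 5 CPM or more on average, a replicate block, a transcript length correction (splines with 4 degrees of freedom), only the compared groups, a threshold of 0.1 and each mouse left out. Omission of Ctrl males 3 and 6 and a term for the H2-Eb1 level were added after seeing the data. The labels do not say whether each library came from a mouse of its own; libraries are called mice here, and p values measure the spread between libraries.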

Additional observations from a re-analysis of the deposited data

How the results depend on the processing

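In each of the 6 comparisons 0 of the 10 genes were called under all 36 or 37 alternatives, the threshold of 0.1 included. The smallest adjusted p over them was 0.121 in males (Cd163), 0.919 in females (Cd74), 0.922 for the difference between the sexes (Cd163), 0.130 between the sexes in Ctrl (Adgre1), 0.150 in cKO (Ccr2) and 0.297 for the mean effect (Cd163). The 30 log2 fold changes compared here are the genotype effects of each gene in males and in females and 10 of the other values printed above. In 1073 comparisons with an alternative, 28 values had the other sign and 0 passed the threshold, and all 28 were genotype effects within a sex. Outside these 30, the H2-Eb1 term turned the sex difference of Cd74 in Ctrl from -0.046 to 0.047 and the difference of the effect of Cd68 between the sexes from 0.041 to -0.0036. In males, Csf1r was -0.012 with the transcript length correction, Ccr2 was -0.025 without Ctrl males 3 and 6, and Cd74 was 2.16e-05 with limma voom and 0.054 with the H2-Eb1 term. With each mouse left out in turn, the male values ran from -0.024 to 0.11 for Cd68, -0.055 to 0.099 for Csf1r, -0.059 to 0.35 for Ccr2 and -0.19 to 0.063 for Cd74. The female values ran from -0.0077 to 0.16 for Adgre1, -0.12 to 0.059 for Cd163, -0.027 to 0.094 for Mrc1, -0.044 to 0.16 for Lyve1 and -0.46 to 0.18 for Ccr2.

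The count of genes called over all genes, the background of the member counts, was less steady: in males it was 68, 4 without Ctrl male 5 and up to 122 with another mouse left out, 14 with the length correction and 386 with DESeq2. At the same threshold it ran from 1 to 9 in females, between the sexes from 40 (without Ctrl males 3 and 6) to 253 in Ctrl and from 163 to 708 in cKO, and from 96 to 525 for the mean effect. At the threshold of 0.1 the counts were 304 in males, 5 in females, 225 in Ctrl, 880 in cKO and 487 for the mean effect. Of the 45 pairs of members, 20 passed, 15 to 28 with a mouse left out, 17 with the H2-Eb1 term and 32 with the replicate block, and the cause was not tested. The replicate numbers pair no animals in the labels: same-numbered mice had r over 0.1 in 0 of 6 pairs in males and 3 of 6 in females, and the block called 0 of the 10 genes. Ccr2 had the fewest counts of the 10 genes, 3 to 85 per library.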
